A study of Danio rerio with 10 samples.

Results

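RNA of zebrafish (Danio rerio) sperm was compared with RNA of zebrafish oocytes, to describe which transcripts each gamete library held and which both held at a high level. A gene counted as measured at 5 RPKM or more in either library, where RPKM is a read count divided by gene length and by library size, and 11209 of the 32574 genes in the deposited table passed. Of these, 4679 passed in both libraries, 5326 in sperm only and 1204 in the oocyte only. The edge of this rule lay between the genes bcl2l12 (5.003 RPKM in sperm and 2.05 in the oocyte) and ssuh2rs1 (3.46 and 5.0005 RPKM), which were counted, and rph3al (0.711 and 4.9986 RPKM) and TRAPPC12 (4.998 and 2.66 RPKM), which fell just short. The change of a gene was the difference of log2(RPKM + 1), sperm minus oocyte, and a gene was called higher in 1 library where its change reached 2 either way, which is 4-fold for abundant genes and more than 4-fold for low ones. The series holds 1 library of sperm, 1 of oocytes and 1 for each of 8 embryo stages from 1-cell to sphere. Each was made from total RNA isolated with TRIzol, prepared with the TruSeq RNA v2 kit and sequenced as single reads of 50 bp. The sources used here give no strain, age, number of animals or way of collecting the gametes, and label both gametes with the developmental stage embryo. The deposited values correspond to 39600592 reads in the sperm and 54662927 reads in the oocyte library. With 1 library per gamete there was no replicate check and no test. A fold is the ratio of the RPKM values, larger over smaller, and the bracket after it is its exact 95% interval from the reads, which covers counting error only. Where a gene had no read in 1 library, 3 reads were put in its place and the fold is a lower bound.

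A vertebrate spermatozoon is a small cell with condensed chromatin and a motile flagellum, and it makes little or no new RNA once its nucleus has condensed. Most RNA of a mature spermatozoon is thus made earlier, during spermatogenesis. A fish oocyte is large, stores RNA and protein for the cleavage divisions of the embryo and is transcriptionally quiet when mature.

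The labels were first set against marker genes. These lists were chosen with earlier results of these data known, so they are no independent check of the labels. Of 24 sperm and spermatid markers, 21 stood at 5 RPKM or more in the sperm library and 0 in the oocyte library, with summed levels of 1542 and 11.8 RPKM. Of 27 oocyte markers, 23 reached that level in the oocyte library and 10 in the sperm library, with summed levels of 14122 and 314 RPKM. Of the oocyte sum, 4558 RPKM were cldnd and 2172 RPKM were cth1. Of 25 measured oocyte markers, 18 were called higher in the oocyte and 0 in sperm. Short of that rule, LHX8 (5.88 RPKM in sperm and 4.04 in the oocyte) and npm2a (6.67 and 1.21 RPKM) stood higher in sperm. The sperm library also held RNA that spermatozoa are not known for. Testis somatic markers summed to 1527 RPKM there and to 238 RPKM in the oocyte, with 12 and 2 of 20 at 5 RPKM or more. In sperm, 148 of the 1527 RPKM came from DMRT1, which germ cells express too. In the oocyte, 206 of the 238 RPKM came from 1 copy of the steroidogenic gene CYP11A1 (ENSDARG00000002347). Exocrine pancreas markers, led by the trypsin genes prss59.1 (483 against 0.0646 RPKM) and prss1 (431 against 0.423 RPKM), summed to 1883 RPKM in sperm and 5.75 RPKM in the oocyte. All 20 of them were above 0 in sperm, and 5 of them were at 0 in the oocyte. Summed levels in sperm and oocyte were 79.9 and 42.7 RPKM for blood markers, 32.7 and 2.35 RPKM for muscle markers, and 48.0 and 0.286 RPKM for liver and yolk markers. Follicle markers summed to 57.9 and 45.8 RPKM, gut and kidney markers to 224 and 219 RPKM, and nerve markers to 135 and 23.0 RPKM. Skin and epithelial markers summed to 520.2 RPKM in sperm and 2689 RPKM in the oocyte, of which 2201 RPKM were the adhesion gene epcam, at 3809 RPKM in the 1-cell library. The oocyte library held RNA of other cells' marker genes as well. The keratins krt5, krt91 and krt18b and the calcium-binding gene icn stood there at 116, 72.6, 39.8 and 145 RPKM, and in the 1-cell library at 0.204, 0.0929, 0 and 0.2596 RPKM. In sperm these 4 genes were at 0.255, 19.9, 19.6 and 144 RPKM, and icn is 1 of the genes counted as high in both. Of 10 measured skin and epithelial genes, 2 were called higher in sperm, krt8 (239 against 37.5 RPKM) and krt15 (19.5 against 2.93 RPKM). The 2 called higher in the oocyte were epcam and krt5. The gene krt18b is also on the follicle list and makes up most of its oocyte sum. In sperm, the follicle sum held krt18b at 19.6, amh at 13.2 and the progesterone receptor PGR at 11.3 RPKM. The gene amh is on the testis somatic list too. The part of these other cells, or of germ cells at earlier stages of spermatogenesis, in any difference given here was not tested. In such bulk RNA fewer cells of a type cannot be told apart from less RNA per cell.

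In all, 4827 genes (43.1% of those measured) were called higher in sperm and 1548 (13.8%) higher in the oocyte, 56.9% together, and the median change over all measured genes was 1.51. Values in the text are given as sperm against oocyte unless said otherwise. The genes called higher in sperm held 48.4% of the sperm total and 4.14% of the oocyte total, and those called higher in the oocyte held 48.8% of the oocyte total and 4.07% of the sperm total. A like share of each total was thus spread over many more genes in sperm than in the oocyte. A change of 8 or more was seen in 21 genes toward sperm and 11 toward the oocyte, and one of 6 to 8 in 208 and 45 genes. Of the genes called higher in sperm, 536 were listed at 0 in the oocyte and 2944 were under 1 RPKM there. Of those called higher in the oocyte, 10 were listed at 0 in sperm and 279 were under 1 RPKM there. Over the 9091 genes at 1 RPKM or more in both libraries the median log2 ratio of sperm to oocyte was 0.41. Scaling the libraries to remove it moved the median of all measured genes by -0.36, to 1.16, with 4254 genes higher in sperm and 1935 higher in the oocyte.

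**Figure D1:**
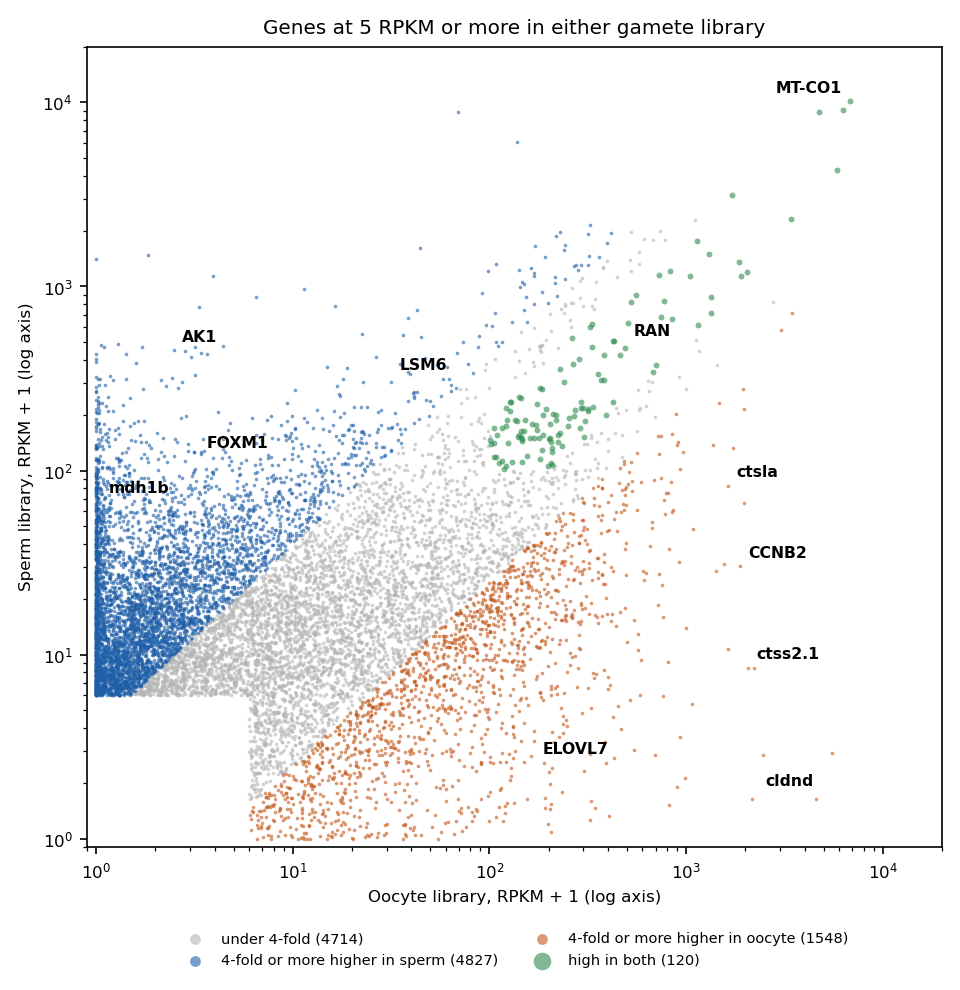
Level of each of the 11209 measured genes in the oocyte library (x axis, RPKM + 1, log axis) and the sperm library (y axis, RPKM + 1, log axis), 1 point per gene, coloured by call. The 4827 genes higher in sperm crowd the left edge, where the oocyte value is near 0, while the 1548 genes higher in the oocyte spread along the bottom.

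The most abundant transcripts of the sperm library with a symbol of their own were of the mitochondrial genome and of translation. Of the top 20, 5 were mitochondrial and 10 were genes of the ribosome, counting RACK1, and the elongation factor eef1a1l1 stood among them (1999 against 737 RPKM, 2.71-fold [2.695 to 2.73]). The most abundant gene without a symbol of either kind was si:dkey-153m14.1 (8923 against 68.1 RPKM, 131-fold [127 to 136]). It carries only a clone name, which does not tell its kind. Its level in the 1-cell embryo library was 23.4 RPKM. Also among the 20 were zgc:55461 (1621 against 43.3 RPKM, 37.4-fold [36.2 to 38.7]) and si:dkey-238c7.12 (2166 against 322 RPKM). The most abundant gene without a symbol among those higher in sperm was ENSDARG00000070212 (6069 against 138 RPKM, 44.05-fold [43.1 to 44.98]).

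Among genes with a symbol of their own, several of the 25 with the largest changes toward sperm belong to cilia and flagella. DAW1, an assembly factor of axonemal dynein, stood at 289 against 0.0314 RPKM, 9219-fold [3154 to 44707]. The ciliary genes cfap144 (265 RPKM), CFAP299 (208 RPKM) and cfap126 (214 against 0.0313 RPKM) were of like level, and the first and second of these had no read in the oocyte. RAB36, a small GTPase of the Rab family, stood at 282 RPKM in sperm with no read in the oocyte, which makes it at least 6071-fold higher. FANK1, which is expressed in meiotic and haploid male germ cells of mammals, stood at 229 against 0.02795 RPKM, 8184-fold [2265 to 67587]. The cohesin gene smc1b, which acts in meiosis, stood at 232 against 0.0387 RPKM, 5985-fold [3037 to 13864]. The meiotic genes HORMAD1 (486 against 0.297 RPKM) and DMC1 (241 RPKM, no read in the oocyte) were of the same order. Whether germ cells at earlier stages of spermatogenesis gave the reads of the meiotic genes was not tested. Markers of other cells were among these 25 genes too. They were the testis somatic genes insl3, gsdf (312 against 0.0272 RPKM) and STAR (233 against 0.0664 RPKM), and the pancreas protease genes prss59.1, prss59.2, prss1 and ctrb.1. Further members were rarres3l (466 against 0.705 RPKM, 660.1-fold [513 to 865]) and rn7sl1, the RNA of the signal recognition particle (769.5 against 2.35 RPKM, 328-fold [239 to 463]).

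The most abundant transcripts of the oocyte library were in part of the same kind, with 8 mitochondrial genes in the top 20. The top 20 also held cell junction and adhesion genes, cell cycle genes and lysosomal enzymes, and 0 genes with the symbol of a ribosomal protein. The gene si:dkey-151g10.6, which carries only a clone name, was abundant in both (3145 against 1703 RPKM). Some cathepsins, lysosomal proteases that cleave yolk proteins in fish oocytes, were abundant. Among them ctss2.1 was at 7.49 against 2055 RPKM, 274-fold [249 to 303], ctsla at 81.9 against 1627 RPKM, 19.9-fold [19.4 to 20.3] and CTSB, outside the top 20, at 47.4 against 1084 RPKM, 22.8-fold [22.2 to 23.5]. In the list of cathepsins and serine protease inhibitors, 9 (45%) of 20 measured genes were higher in sperm and 5 (25%) in the oocyte. The shares of all measured genes were 43.1% and 13.8%. PPT2, a lysosomal thioesterase, was at 9.79 against 1633 RPKM, 167-fold [152 to 183]. The B-type cyclins, which drive entry into M phase, were at 29.2 against 1883 RPKM, 64.5-fold [61.7 to 67.5] for CCNB2 and 131 against 1729 RPKM, 13.2-fold [12.9 to 13.4] for CCNB1. The RNA-binding protein hnrnpa0l was abundant in both (826 against 2757 RPKM, 3.34-fold [3.304 to 3.37]). The most abundant gene without a symbol among those higher in the oocyte was ENSDARG00000001915, with 1.91 against 5491 RPKM.

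Among genes with a symbol of their own the largest difference toward the oocyte was in cldnd, a claudin of tight junctions (0.648 against 4558 RPKM, 7031-fold [4552 to 11511]), and cldng of the same family was close behind (1.86 against 2459 RPKM, 1322-fold [1065 to 1662]). Between them stood cth1, a CCCH zinc finger gene (0.653 against 2172 RPKM, 3329-fold [2445 to 4659.8]). The tight junction gene oclnb, an occludin, stood at 0.0846 against 205 RPKM, 2418-fold [1227 to 5602], and the transmembrane serine protease gene tmprss4b at 0.262 against 325 RPKM, 1238-fold [825 to 1953]. The helicase gene PIF1 was also there (1.84 against 697 RPKM, 378-fold [329.6 to 436]), as was thy1, which encodes a surface glycoprotein (4.38 against 1075 RPKM, 246-fold [218 to 277]). RFLNB, a partner of filamin, stood at 0.788 against 232 RPKM, 295-fold [189 to 490.1]. The buc relative buc2l stood at 0.466 against 192 RPKM, 411-fold [318 to 541].

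Most cell signalling genes fell short of 5 RPKM in both libraries, as did most genes of the whole table. Of 562 genes in 7 signalling lists 198 were measured, beside 11209 of all 32574 genes. Of the 198, 81 (40.9%) were higher in sperm and 31 (15.7%) higher in the oocyte. Their median change was 1.05 against 1.51 over all measured genes. A gene that is high in 1 library and passes the rule through it is bound to differ, so these counts describe the lists and support no statement on them. The percentages after the counts of a list are shares of its measured genes, to be read against 43.1% higher in sperm and 13.8% higher in the oocyte among all measured genes.

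In the TGF-beta family, 32 of 78 genes were measured, and 17 (53.1%) were higher in sperm and 6 (18.8%) higher in the oocyte. By role, 8 of 11 measured ligands, 3 of 9 receptors and 4 of 9 intracellular members were higher in sperm, and 2 of each of these classes in the oocyte. Ligands on the sperm side included inha, the inhibin alpha chain (41.1 against 0.209 RPKM, 196-fold [117 to 359.6]), INHBB, an activin and inhibin beta chain (9.84 against 0.0303 RPKM), TGFB2 (21.6 against 0.475 RPKM) and amh, the anti-Mullerian hormone of Sertoli cells (13.2 against 0.0113 RPKM). The inhibitory Smad SMAD7 went the same way (13.8 against 0.08105 RPKM, 170.0-fold [82.1 to 424]). The oocyte held the ligand gdf3, also called vg1, a maternal partner of Nodal in zebrafish (4.101 against 328 RPKM, 79.98-fold [71.99 to 89.1]), and GDF9, an oocyte growth factor, at a low level (0.325 against 7.73 RPKM). The intracellular members higher in the oocyte were SMAD5 of the BMP branch (45.7 against 394 RPKM, 8.604-fold [8.35 to 8.87]) and SMAD2 of the Nodal and activin branch (10.8 against 81.4 RPKM, 7.57-fold [7.09 to 8.09]). The testis somatic markers inha and amh are also members of this list.

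Of 24 measured Wnt genes, out of 70, 12 (50%) were higher in sperm and 6 (25%) in the oocyte. All 3 measured ligands and 5 of 6 receptors were higher in sperm, while of 10 intracellular members 1 was higher in sperm and 3 in the oocyte. On the sperm side were the ligand wnt4b (7.07 against 0.116 RPKM), the enhancer RSPO2 (10.3 RPKM, no read in the oocyte), the antagonist relative DKK3 (11.2 against 0.442 RPKM) and the receptors RYK (22.2 against 0.253 RPKM, 88.1-fold [67.5 to 117]) and LGR4 (5.08 against 0.0729 RPKM). On the oocyte side were WLS, the carrier that takes Wnt proteins to the cell surface (12.8 against 145 RPKM, 11.3-fold [10.6 to 11.9]), the nuclear effector LEF1 (1.103 against 25.4 RPKM, 23.05-fold [19.3 to 27.7]), the receptor ROR2 (3.13 against 16.3 RPKM) and APC, of the beta-catenin destruction complex (2.64 against 17.02 RPKM). CTNNB1, beta-catenin itself, differed little (49.9 against 67.5 RPKM).

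Of 33 measured genes of receptor tyrosine kinase signalling, out of 114, 10 (30.3%) were higher in sperm and 4 (12.1%) in the oocyte. The kinase MTOR, which senses nutrients and growth factors, was higher in sperm (15.5 against 0.469 RPKM, 33.1-fold [28.9 to 37.98]), as were the ligands egf (11.8 against 0.387 RPKM) and VEGFC (5.31 against 0.0655 RPKM). The kinase akt2 (13.7 against 116 RPKM, 8.44-fold [8.05 to 8.86]) and the ligand HBEGF (3.68 against 31.3 RPKM, 8.51-fold [7.46 to 9.73]) were higher in the oocyte. In the Notch list 9 (42.9%) of 21 measured genes were higher in sperm and 1 (4.76%) in the oocyte, so the sperm share was close to that of all measured genes. The targets HEY2 (10.6 against 0.0289 RPKM) and HEY1 (6.16 against 0.0496 RPKM) were on the sperm side, and the one gene on the oocyte side was APH1B, of the gamma-secretase that cleaves Notch (15.4 against 127 RPKM, 8.27-fold [7.84 to 8.73]). The ligand DLD was present in both (99.01 against 51.5 RPKM). In the Hedgehog list 2 (40%) of 5 measured genes were higher in sperm and 1 (20%) in the oocyte. The one on the oocyte side was the inhibitor SUFU (27.5 against 159 RPKM, 5.78-fold [5.57 to 6.01]).

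Hormone and G-protein signalling held the ligand insl3, the hormone of Leydig cells, at 430.2 RPKM in sperm with no read in the oocyte. Of 34 measured genes 16 (47.1%) were higher in sperm and 4 (11.8%) in the oocyte. The chemokine CXCL12 (13.4 against 0.162 RPKM), the progesterone receptor PGR (11.3 against 0.0395 RPKM) and the receptor kinase grk5 (19.6 against 0.235 RPKM) were on the sperm side. The lysophosphatidic acid receptor LPAR2 (16.6 against 245 RPKM, 14.7-fold [13.9 to 15.6]) and the membrane progesterone-binding protein PGRMC2 (29.1 against 277 RPKM, 9.53-fold [9.16 to 9.905]) were on the oocyte side.

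Of 49 measured genes of cyclic nucleotide and calcium signalling 15 (30.6%) were higher in sperm and 9 (18.4%) in the oocyte, against 43.1% and 13.8% of all measured genes. Sperm held the calcium buffer PVALB, a parvalbumin (467 against 2.197 RPKM, 213-fold [178 to 256]), and efcab2, an EF-hand protein of the axonemal dynein regulatory complex (186 against 0.762 RPKM, 244-fold [159 to 395]). It also held MICU2, of the mitochondrial calcium uniporter (23.5 against 0.868 RPKM, 27.1-fold [22.6 to 32.7]). The oocyte held S100A1, another EF-hand protein (1.73 against 429 RPKM, 248-fold [184 to 343]), and ITPR2, a receptor that releases calcium from the endoplasmic reticulum (0.562 against 39.5 RPKM, 70.3-fold [59.19 to 84.3]). It further held PLCG1, a phospholipase C that makes the ligand of that receptor (10.6 against 128 RPKM, 12.1-fold [11.6 to 12.6]), and the calcium-stimulated adenylate cyclase ADCY8 (4.05 against 97.7 RPKM, 24.1-fold [21.9 to 26.6]). Of the calmodulin genes, calm2a was higher in the oocyte (53.8 against 430.5 RPKM, 8.002-fold [7.61 to 8.42]), while CALM2 stood at 604 against 258 RPKM, short of the 4-fold rule.

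**Figure D2:**
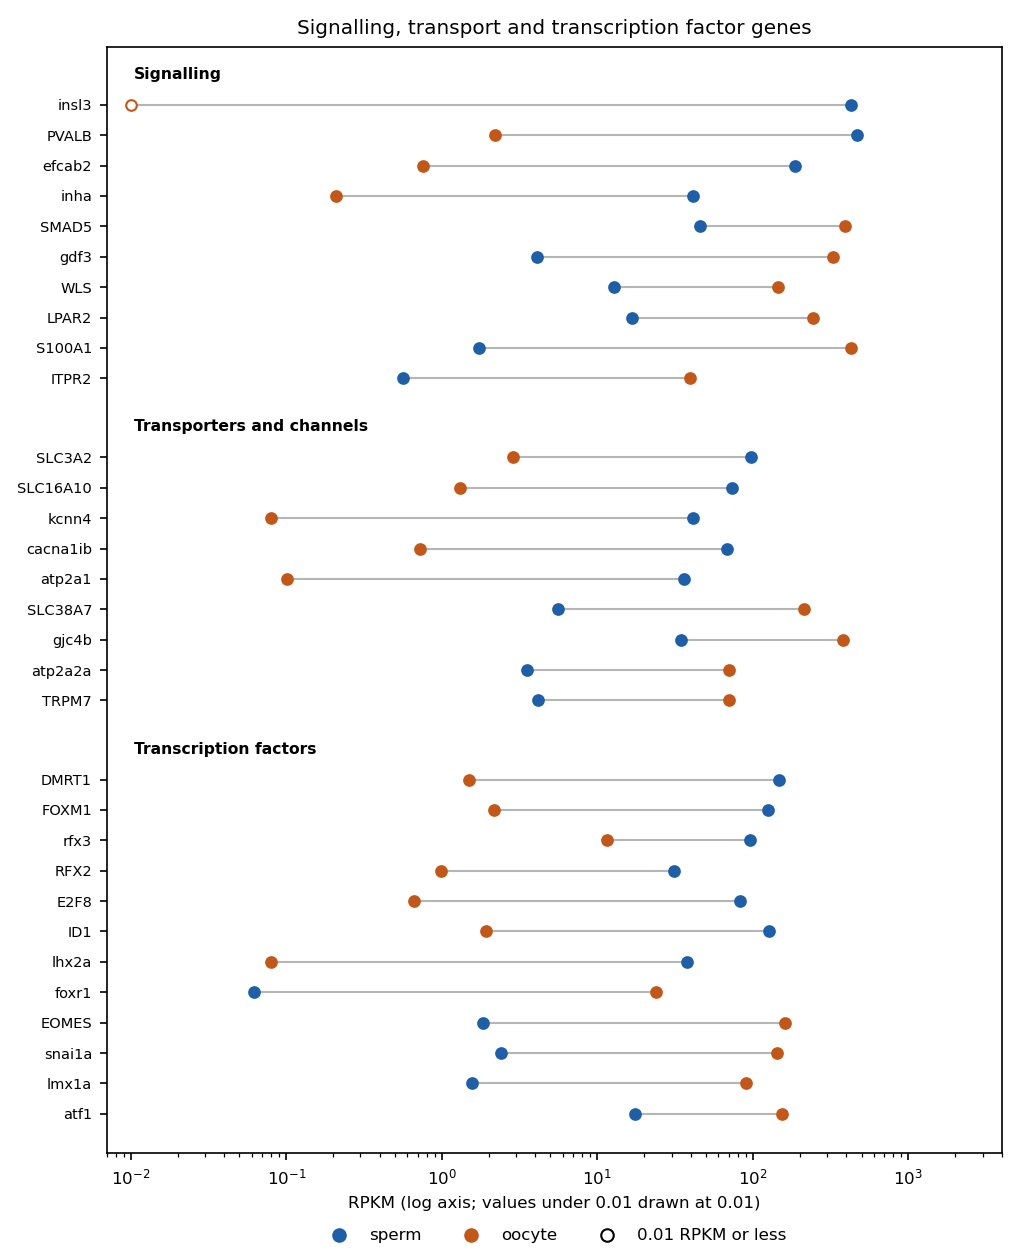
Level of named signalling, transport and transcription factor genes in the sperm (blue) and oocyte (orange) libraries, on a log axis in RPKM, with 1 library per gamete and a line joining the pair of values (open circles: 0.01 RPKM or less). Within each group the upper genes stand higher in sperm and the lower genes higher in the oocyte.

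Metabolic genes were measured more often than signalling genes, in 295 of 439, and 106 of them (35.9%) were higher in sperm and 38 (12.9%) in the oocyte, with a median change of 1.14. Both shares and the median were below those of all measured genes. Kinases that exchange phosphate between nucleotides were among the largest changes toward sperm. AK1, an adenylate kinase, stood at 448 against 1.49 RPKM, 302-fold [236 to 393]. The related AK7 and ak8, which belong to motile cilia, stood at 152 against 0.153 RPKM, 993-fold [643 to 1626] and 70.6 against 0.01401 RPKM, 5037-fold [1394 to 41599]. The nucleoside diphosphate kinase gene NME5 was at 174 against 0.4898 RPKM, 355-fold [242 to 544], and nme2a at 75.1 RPKM with no read in the oocyte. A creatine kinase, 1 of 2 genes with the symbol CKB (ENSDARG00000069752), stood at 875 against 5.503 RPKM, 159-fold [148 to 171]. It was chosen after its values were seen. The other copy (ENSDARG00000043257) stood at 26.7 against 50.1 RPKM.

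Of 48 measured genes of nucleotide metabolism 19 (39.6%) were higher in sperm and 9 (18.8%) in the oocyte, near the shares of all measured genes. Several on the oocyte side make precursors of DNA. Thymidylate synthase TYMS stood at 65.5 against 301 RPKM, 4.601-fold [4.43 to 4.78], the ribonucleotide reductase subunit RRM1 at 53.04 against 297 RPKM, 5.596-fold [5.45 to 5.75] and thymidylate kinase DTYMK at 44.9 against 214 RPKM, 4.77-fold [4.52 to 5.03]. CAD, which starts pyrimidine synthesis, stood at 13.5 against 98.4 RPKM, 7.31-fold [7.08 to 7.55], and deoxycytidine kinase DCK at 14.2 against 90.6 RPKM, 6.37-fold [5.87 to 6.93]. All 5 were also present in sperm, at 13.5 RPKM or more.

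In glycolysis 9 (36%) of 25 measured genes were higher in sperm and 3 (12%) in the oocyte. ENO4, an enolase that mouse sperm need for motility, stood at 109.6 against 0.07996 RPKM, 1371-fold [722 to 2999.6]. The lactate dehydrogenase copy ldhbb stood at 22.4 against 0.0778 RPKM. Glyceraldehyde-3-phosphate dehydrogenase was divided between 2 genes. GAPDHS, named after the sperm enzyme of mammals, was the more abundant per length in sperm (376 against 94.6 RPKM). In the oocyte GAPDH (29.3 against 126 RPKM) stood above GAPDHS, although the latter was still at 94.6 RPKM there. The oocyte also held the mutase pgam1b (8.83 against 47.5 RPKM) and pfkfb4a, which sets the level of a glycolytic activator (3.35 against 53.1 RPKM, 15.8-fold [14.1 to 17.9]). LDHB was high in both (218 against 298 RPKM).

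Of the citric acid cycle and its entry, 11 (37.9%) of 29 measured genes were higher in sperm and 3 (10.3%) in the oocyte. The malate dehydrogenase family gene mdh1b, at 92.5 RPKM in sperm, had no read in the oocyte. PDHB, of the pyruvate dehydrogenase complex, stood at 89.5 against 5.48 RPKM, 16.3-fold [14.9 to 17.96] and the mitochondrial isocitrate dehydrogenase IDH2 at 176 against 15.1 RPKM, 11.7-fold [10.97 to 12.4]. Its cytosolic counterpart IDH1 was alike in both (163 against 148 RPKM). Enzymes that regulate pyruvate dehydrogenase differed in direction. The inactivating kinases PDK3 (18.2 against 0.212 RPKM) and PDK1 (9.16 against 0.402 RPKM) were higher in sperm, and the activating phosphatase PDP1 was higher in the oocyte (1.61 against 29.05 RPKM, 18.1-fold [15.2 to 21.7]). The mitochondrial malic enzyme ME3 (22.7 against 244 RPKM, 10.8-fold [10.3 to 11.2]) and the cytosolic ME1 (10.3 against 56.98 RPKM, 5.55-fold [5.17 to 5.96]) were higher in the oocyte too.

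Lipid genes went both ways. In fatty acid and glycerolipid synthesis 9 (33.3%) of 27 measured genes were higher in sperm and 5 (18.5%) in the oocyte. ELOVL7, which lengthens fatty acids, stood at 2.39 against 168 RPKM, 70.4-fold [60.8 to 81.98], and PTDSS1, which makes phosphatidylserine, at 4.15 against 229 RPKM, 55.2-fold [49.5 to 61.7]. HSD17B12, also of fatty acid elongation, stood at 1.37 against 49.1 RPKM, 35.7-fold [30.3 to 42.4], and the phosphatidate phosphatase LPIN2, on the sperm side, at 39.7 against 1.41 RPKM, 28.2-fold [25.4 to 31.3]. The median of 27 measured genes of fatty acid and glycerolipid synthesis was 0.28, which flipped to -0.09 when the median ratio of the libraries was removed. Of 30 measured genes of fatty acid oxidation 7 (23.3%) were higher in sperm, among them the acyl-CoA synthetase ACSL5 (11.8 against 0.0661 RPKM, 179-fold [104.5 to 337]), and 5 (16.7%) in the oocyte, among them the dehydrogenase ACADL (10.4 against 129.8 RPKM, 12.5-fold [11.6 to 13.5]). Cholesterol synthesis had 6 (42.9%) of 14 measured genes higher in sperm and 0 in the oocyte. Its sterol reductase TM7SF2 stood at 125 against 3.52 RPKM, 35.6-fold [31.9 to 39.9] and its cyclase LSS at 22.4 against 1.67 RPKM, 13.4-fold [11.7 to 15.4].

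Retinoic acid is made by ALDH1A2 and broken down by CYP26A1, and the 2 enzymes differed in direction. ALDH1A2 stood at 96.9 against 2.94 RPKM, 32.9-fold [29.9 to 36.3], and the retinol dehydrogenase DHRS9 at 109 against 4.46 RPKM, 24.5-fold [21.7 to 27.8]. LRAT, which stores retinol as ester, stood at 6.53 against 0.0158 RPKM. CYP26A1 was higher in the oocyte (4.89 against 91.5 RPKM, 18.7-fold [16.8 to 20.8]), the only one of 12 measured retinoid genes that was, while 9 (75%) were higher in sperm.

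Polyamine and one-carbon enzymes went both ways, with 12 (41.4%) of 29 measured genes higher in sperm and 5 (17.2%) in the oocyte. Ornithine decarboxylase ODC1, which starts polyamine synthesis, stood at 44.8 against 367 RPKM, 8.19-fold [7.93 to 8.45] and spermidine synthase SRM at 6.31 against 54.03 RPKM, 8.57-fold [7.95 to 9.25]. Spermine synthase SMS, the next enzyme, was higher in sperm (76.1 against 7.52 RPKM, 10.1-fold [9.41 to 10.9]). The sarcosine dehydrogenase SARDH (1.91 against 45.8 RPKM, 23.9-fold [20.98 to 27.4]) was higher in the oocyte, and MTAP, which salvages methionine, was higher in sperm (55.8 against 1.54 RPKM, 36.2-fold [29.8 to 44.5]). Branched-chain amino acids are first acted on by 2 transaminases, and BCAT1, the cytosolic one, was higher in sperm (54.2 against 0.304 RPKM, 178-fold [135 to 241]) while the mitochondrial BCAT2 was higher in the oocyte (14.7 against 132 RPKM, 8.98-fold [8.59 to 9.403]). In the redox list 12 (30%) of 40 were higher in sperm and 3 (7.5%) in the oocyte. The mitochondrial superoxide dismutase SOD2 (96.7 against 12.8 RPKM, 7.53-fold [6.93 to 8.19]) and the peroxiredoxin prdx5 (155 against 17.2 RPKM, 9.06-fold [8.41 to 9.76]) were on the sperm side, and gsto2, a glutathione transferase (5.25 against 104 RPKM, 19.8-fold [17.3 to 22.7]), and GLRX5, of iron-sulfur cluster assembly (39.5 against 249.6 RPKM, 6.32-fold [5.98 to 6.69]), on the oocyte side.

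**Figure D3:**
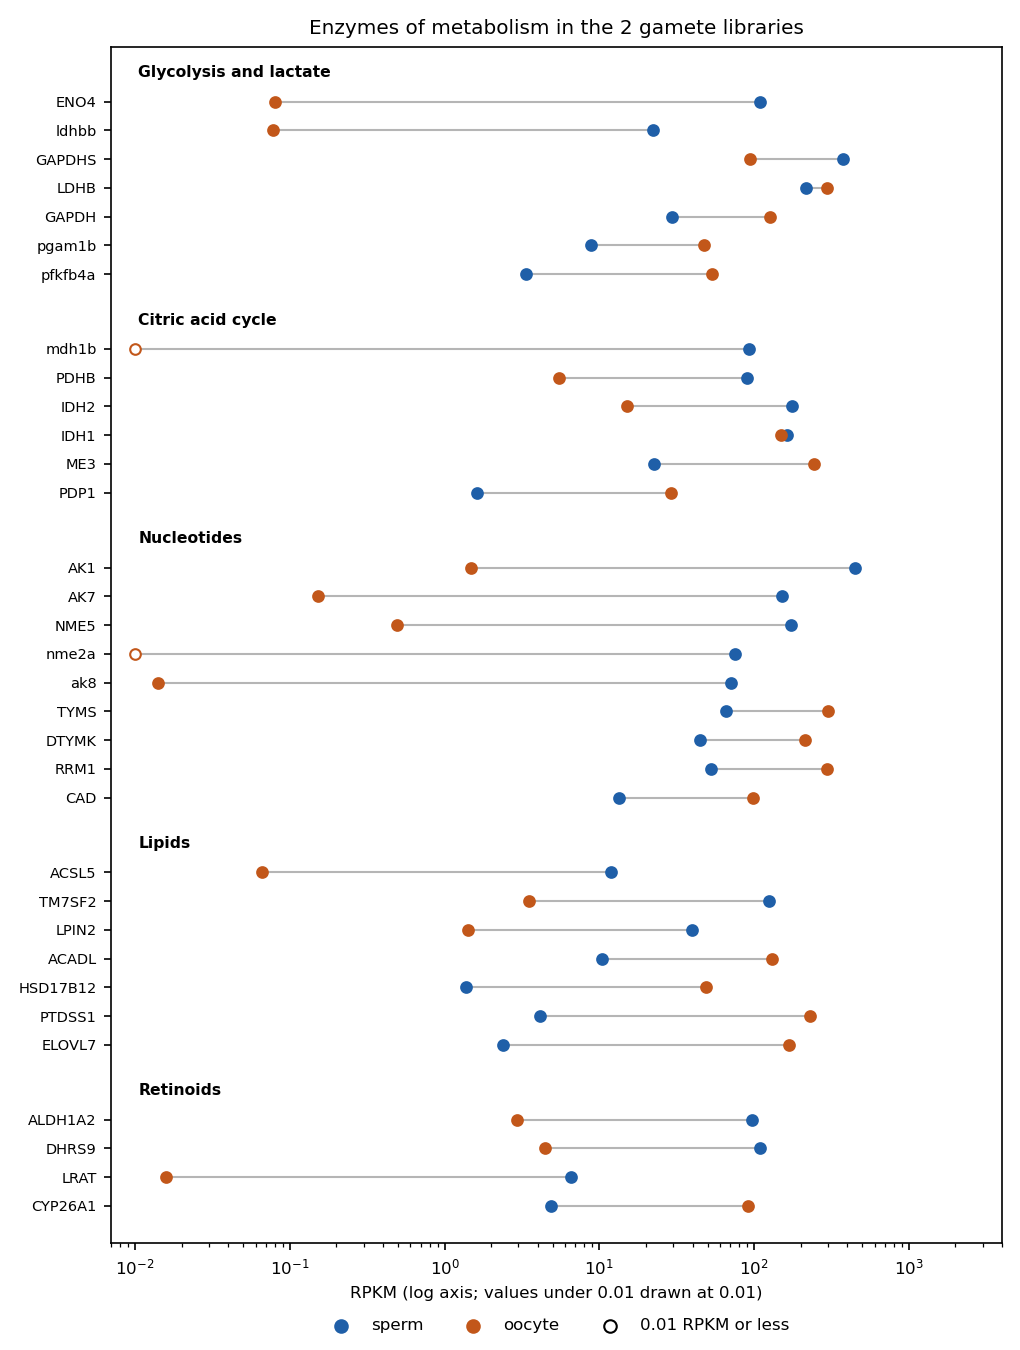
Level of named enzymes in the sperm (blue) and oocyte (orange) libraries, on a log axis in RPKM, with 1 library per gamete, open circles at or under 0.01 RPKM and a line joining the pair of values. In each pathway some enzymes lie far apart in one direction and others in the opposite one, while LDHB and IDH1 lie close together.

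Transporters and channels were measured in 250 of 877 listed genes, with 97 (38.8%) higher in sperm and 47 (18.8%) in the oocyte and a median change of 1.18. Of 136 measured solute carriers 54 (39.7%) were higher in sperm and 25 (18.4%) in the oocyte, near the shares of all measured genes. On the sperm side were SLC3A2, the heavy chain of several amino acid transporters (97.7 against 2.89 RPKM, 33.8-fold [30.3 to 37.97]), SLC16A10, a carrier of aromatic amino acids (73.98 against 1.302 RPKM, 56.8-fold [48.8 to 66.6]), and the bicarbonate carrier SLC4A8 (23.7 against 0.135 RPKM, 176-fold [126 to 252]). On the oocyte side were SLC38A7, which moves glutamine (5.59 against 215 RPKM, 38.4-fold [35.5 to 41.6]), SLC38A6 of the same family (10.8 against 141 RPKM, 13.1-fold [12.2 to 14.002]), and SLC29A2, which carries nucleosides (16.7 against 151 RPKM, 9.02-fold [8.66 to 9.396]). The carnitine carrier of mitochondria, SLC25A20, was also on the oocyte side (6.18 against 85.5 RPKM, 13.8-fold [12.4 to 15.4]).

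Isoforms of calcium and sodium pumps differed in direction. The calcium pump atp2a1, known from fast muscle, stood at 36.3 against 0.101 RPKM, 358-fold [240.1 to 559], while atp2a2a, the widely used form, stood at 3.51 against 69.98 RPKM, 19.9-fold [18.3 to 21.7] and the Golgi pump ATP2C1 at 5.05 against 64.2 RPKM, 12.7-fold [11.8 to 13.7]. Of 18 muscle markers 2 stood at 5 RPKM or more in the sperm library, the highest at 10.8 RPKM, and both were called higher in sperm. Whether other cells gave the atp2a1 reads was not tested. The beta subunits of the sodium pump went both ways too, with atp1b3a at 12.4 against 0.0848 RPKM, 147-fold [85.5 to 276] and atp1b3b at 26.3 against 295 RPKM, 11.2-fold [10.7 to 11.7]. Of 19 measured subunits of the vacuolar proton pump 3 (15.8%) were higher in sperm and 0 in the oocyte, and ATP6V1G1 was above 100 RPKM in both (117 against 105.01 RPKM). Of 18 measured ABC transporters 4 (22.2%) were higher in sperm and 5 (27.8%) in the oocyte, led by abca5 (3.69 against 84.2 RPKM, 22.8-fold [21.5 to 24.2]), and of 8 phospholipid and cation pumps of the P-type 2 and 3.

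Of 42 measured ion channels, out of 327 listed, 23 (54.8%) were higher in sperm and 7 (16.7%) in the oocyte. The T-type calcium channels cacna1ib (68.4 against 0.722 RPKM, 94.6-fold [78.6 to 115]) and cacna1ha (21.99 against 0.112 RPKM, 195-fold [143 to 275]) and the potassium channels kcnn4 (41.1 against 0.0802 RPKM, 512-fold [141 to 4237]) and kcnh6a (24.03 against 0.378 RPKM, 63.5-fold [52.2 to 78.1]) led the sperm side. TRPM7, a channel with a kinase domain that conducts magnesium and calcium (4.16 against 70.5 RPKM, 16.9-fold [15.9 to 18.02]), tmc6b (11.1 against 133 RPKM, 11.9-fold [11.1 to 12.9]) and trpm4b3 (0.265 against 15.98 RPKM, 60.3-fold [46.2 to 80.2]) led the oocyte side. The connexin gjc4b, of gap junctions, stood at 34.3 against 380.1 RPKM, 11.1-fold [10.7 to 11.5], and the connexin GJA1 at 17.01 against 1.29 RPKM, 13.1-fold [11.4 to 15.2]. Aquaporin aqp12, which is known from the pancreas of mammals, stood at 25.6 against 0.166 RPKM. Whether other cells gave the aqp12 reads was not tested.

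Of 871 listed transcription factor genes 274 were measured, 140 of them (51.1%) higher in sperm and 28 (10.2%) in the oocyte, with a median change of 2.04 against 1.51 for all measured genes. After median ratio scaling these medians were 1.77 and 1.16. Factors of the cell cycle were among those higher in sperm. FOXM1, which drives genes of mitosis, stood at 125 against 2.16 RPKM, 57.8-fold [52.4 to 64.01], and of 9 measured E2F and DP factors 6 (66.7%) were higher in sperm and 0 in the oocyte, led by the repressor E2F8 (82.2 against 0.661 RPKM, 124-fold [105.1 to 148]). MYBL1, which acts in meiotic male germ cells of mice, stood at 28.3 against 1.897 RPKM, 14.9-fold [13.6 to 16.4] and MYBL2 at 14.2 against 1.999 RPKM. Ciliogenesis factors were also there. All 5 measured RFX factors were higher in sperm, among them RFX2 (30.997 against 0.987 RPKM, 31.4-fold [27.4 to 36.1]) and rfx3 (96.1 against 11.5 RPKM, 8.36-fold [7.94 to 8.81]), and so was the forkhead factor foxj1b, a master regulator of motile cilia (16.02 against 0.0319 RPKM, 503-fold [215 to 1550.2]).

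DMRT1, a factor of testis differentiation that is expressed in Sertoli and germ cells, stood at 148 against 1.51 RPKM, 98.5-fold [87.6 to 111]. It is also on the list of testis somatic markers. ID1, which inhibits bHLH factors, stood at 127 against 1.93 RPKM, 65.6-fold [54.1 to 80.4], HSF2, a heat shock factor, at 56.1 against 1.07 RPKM, 52.6-fold [43.9 to 63.5], and NR1D2, a nuclear receptor of the circadian clock, at 49.2 against 1.13 RPKM, 43.6-fold [38.4 to 49.7]. Of 5 measured Sox factors 3 (60%) were higher in sperm and 0 in the oocyte. Among the 3 were SOX8 (34.997 against 0.693 RPKM, 50.5-fold [39.99 to 64.8]) and SOX5 (11.1 against 0.0344 RPKM, 323-fold [175 to 674]). The bZIP factors atf4b (77.2 against 4.64 RPKM, 16.7-fold [15.2 to 18.3]) and creb1a (21.8 against 0.886 RPKM, 24.6-fold [20.1 to 30.5]) and prdm9, which places meiotic recombination in mammals (12.2 against 0.515 RPKM, 23.8-fold [19.2 to 29.8]) were there as well. Of 29 measured homeodomain factors, Hox genes apart, 17 (58.6%) were higher in sperm, such as lhx2a (37.5 against 0.0804 RPKM, 466-fold [214 to 1272]). Of 39 Hox genes, 0 reached 5 RPKM in either library.

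Fewer factors were called higher in the oocyte than in sperm, as was so for all measured genes, but several of them stood at a high level. EOMES, a T-box factor of the early embryo, stood at 1.83 against 161 RPKM, 87.9-fold [76.5 to 102], the Snail repressor snai1a at 2.403 against 144 RPKM, 59.7-fold [51.9 to 69.2], and the LIM homeodomain factor lmx1a at 1.55 against 89.8 RPKM, 57.8-fold [47.1 to 71.8]. The forkhead genes foxr1 (0.0621 against 23.9 RPKM, 384-fold [131 to 1865]) and foxh1, a partner of Smad proteins in Nodal signalling (0.0472 against 8.77 RPKM, 186-fold [85.2 to 507]), were almost absent from sperm. The bZIP factor atf1 (17.4 against 154 RPKM, 8.86-fold [8.41 to 9.35]), the interferon regulatory factor IRF5 (8.22 against 138 RPKM, 16.8-fold [15.7 to 18.02]), gata2b (0.271 against 12.5 RPKM, 46.1-fold [30.03 to 74.7]) and pparg (0.586 against 9.92 RPKM, 16.9-fold [11.8 to 25.3]) were further members. General transcription factors ran both ways, with 14 (35%) of 40 higher in sperm and 5 (12.5%) in the oocyte. GTF2E2, of TFIIE, stood at 50.1 against 3.16 RPKM, 15.9-fold [14.1 to 17.8], while both chains of TFIIA were higher in the oocyte, GTF2A1 at 111 against 525 RPKM, 4.73-fold [4.64 to 4.82] and GTF2A2 at 31.6 against 195 RPKM, 6.16-fold [5.76 to 6.598].

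Genes of large complexes and of traffic were examined as well. Of 72 measured genes of RNA splicing and packaging, 11 (15.3%) were higher in sperm and 17 (23.6%) higher in the oocyte, with a median change of -0.82. Each scaling tried lowered sperm against the oocyte, so none could have brought that median above 0. With median ratio scaling 8 were higher in sperm and 29 in the oocyte. On the oocyte side were hnrnpc (24.6 against 607 RPKM, 24.7-fold [23.6 to 25.9]), HNRNPA1L2 (36.4 against 816 RPKM, 22.4-fold [21.6 to 23.3]) and HNRNPAB (85.9 against 836 RPKM, 9.73-fold [9.503 to 9.96]), which coat nuclear RNA, and SNRPA, of the U1 particle (30.9 against 382 RPKM, 12.3-fold [11.8 to 12.9]). On the sperm side were hnrnpa3 (62.03 against 0.158 RPKM, 392-fold [233 to 718]) and LSM6, of the U6 and decay particles (301 against 30.7 RPKM, 9.804-fold [9.24 to 10.4]). The chaperonin CCT, which folds tubulin and actin, had 7 (87.5%) of 8 subunits higher in sperm, such as CCT7 (195 against 16.4 RPKM, 11.9-fold [11.3 to 12.4]). Of 66 measured translation factors 32 (48.5%) were higher in sperm and 4 (6.06%) in the oocyte, a sperm share near that of all measured genes. The poly(A)-binding proteins pabpc1b (272 against 9.204 RPKM, 29.5-fold [28.02 to 31.2]) and pabpc1a (300.2 against 672 RPKM, 2.24-fold [2.21 to 2.27]) differed in which library held more. The importin alpha genes KPNA1 (45.6 against 0.981 RPKM, 46.5-fold [39.95 to 54.4]) and kpna7 (0.898 against 896 RPKM, 997-fold [778 to 1301]) went opposite ways, and the nuclear pore gene NUP35 was higher in the oocyte (13.6 against 287 RPKM, 21.1-fold [19.8 to 22.5]). Of 44 measured Rab GTPases, which direct vesicle traffic, 18 (40.9%) were higher in sperm and 1 (2.27%) in the oocyte, and this sperm share too was near that of all measured genes. Of 21 kinesins 6 (28.6%) were higher in sperm, such as kif9 of motile cilia (113 against 0.333 RPKM, 338-fold [244 to 483]), and 4 (19.05%) in the oocyte, such as KIF4A, which binds mitotic chromosomes (17.1 against 126 RPKM, 7.34-fold [7.103 to 7.597]).

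**Figure D4:**
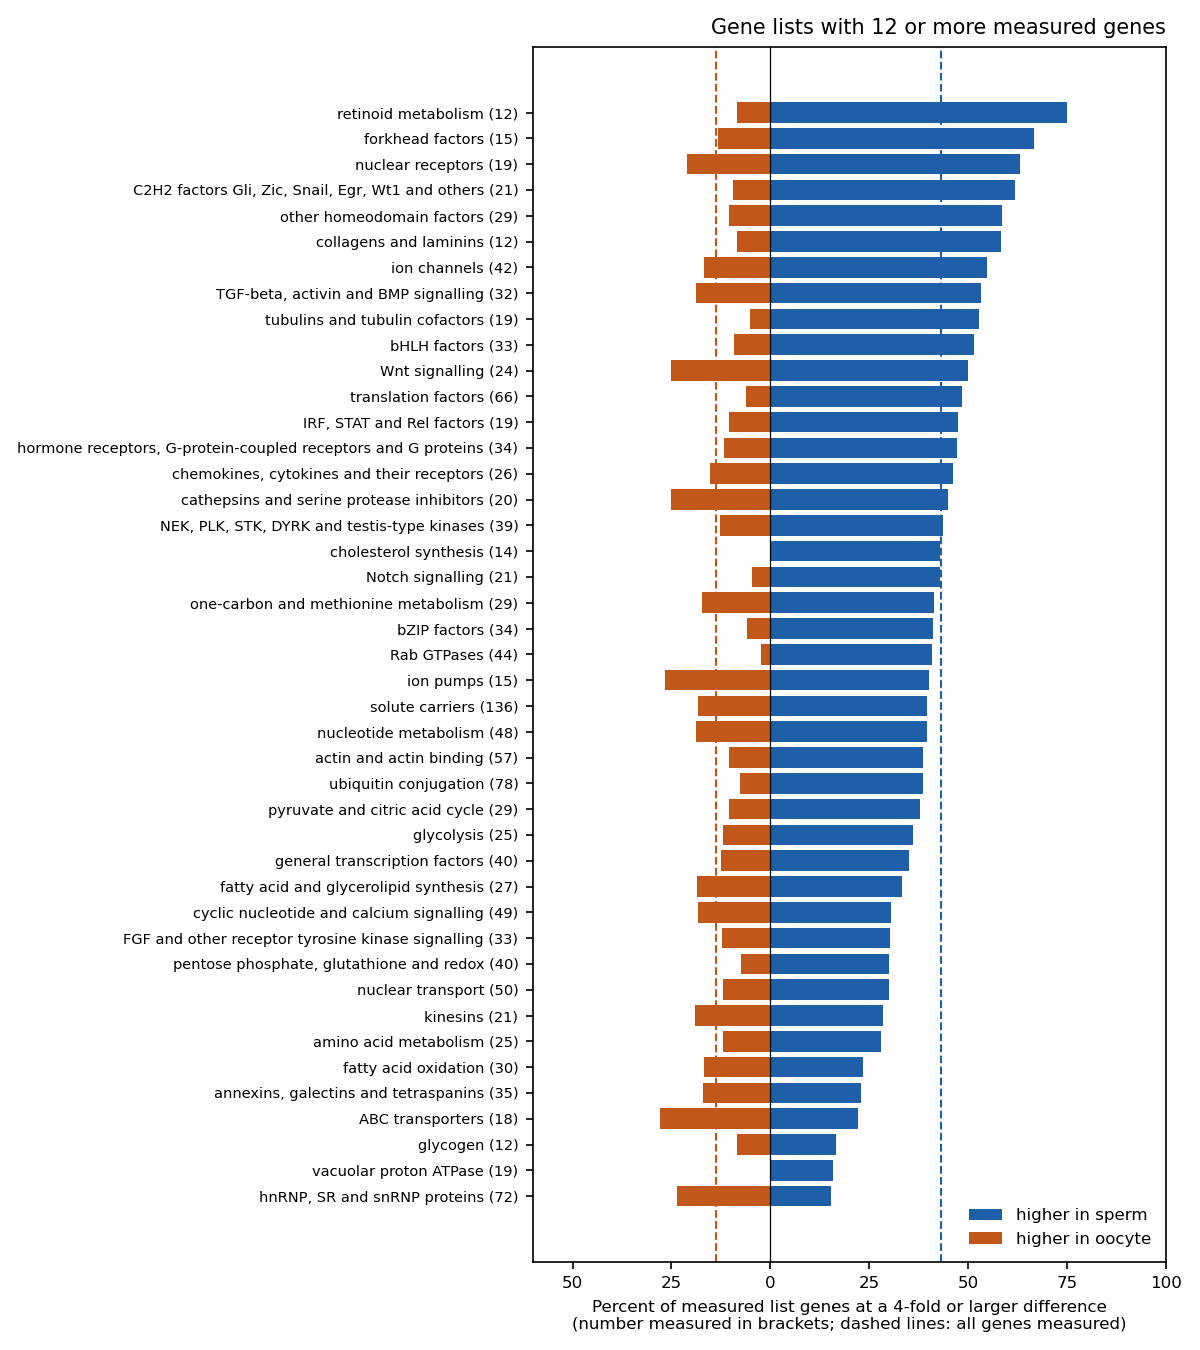
Percent of the measured genes of each list that were called higher in sperm (blue, to the right) or higher in the oocyte (orange, to the left), for lists with 12 or more measured genes outside the marker lists. Dashed lines give the same over all 11209 measured genes, 43.1% and 13.8%, and the splicing list at the bottom has the smallest bar toward sperm, at 15.3%.

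Of the measured genes, 120 (1.07%) were abundant in both gametes and alike, a share that rests on the cutoff of 100 RPKM. They are those of the 274 genes at 100 RPKM or more in both libraries that differed by less than 1 on the log2 scale. Of the 274, 42 were called higher in sperm and 21 higher in the oocyte. Among all measured genes 43.1% and 13.8% were so called. The 120 held 14.7% of the RPKM total in sperm and 14.4% in the oocyte, and 13 of them were mitochondrial by symbol. MT-CO1, a subunit of cytochrome oxidase, stood at 10179 against 6834 RPKM. Genes with a symbol that starts with MT, the mark of the mitochondrial genome, took 8.30% of the sperm RPKM total and 8.01% of the oocyte total. Mitochondrial genes without such a symbol are not in these shares. Of the nuclear genes, RAN, the GTPase of nuclear transport, stood at 459.7 against 489 RPKM, 1.06-fold [1.05 to 1.08], RBM8A, of the exon junction complex, at 502 against 422 RPKM. The actin-binding peptide gene tmsb4x stood at 900.2 against 553 RPKM, and at 87.9 RPKM in the 1-cell library. Whether other cells gave its oocyte reads was not tested. The ribosomal protein genes RPL29 (829 against 769.6 RPKM), rps20 (1156 against 725 RPKM) and RPL12 (629.8 against 504 RPKM) were among the 7 of their family that met the rule. Further members were the RNA-binding protein YBX1 (421 against 459 RPKM), PCNA, the replication clamp (404 against 283 RPKM), SKP1, of ubiquitin ligases (426 against 383 RPKM), the iron store fth1a (622 against 329 RPKM), DAZL, a germ cell RNA-binding protein (159 against 226 RPKM), the cohesin gene SMC3 (192 against 254 RPKM) and NFS1, which supplies sulfur to iron-sulfur clusters (147 against 146 RPKM). These 7 lie outside the 20 most abundant and were chosen after their values were seen. Among the genes at 100 RPKM in both that were higher in the oocyte was the mitotic kinase plk1 (137 against 1371 RPKM, 9.98-fold [9.81 to 10.2]).

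The 8 embryo libraries were not used to choose these genes, and give the level of the same genes after fertilisation. The calls do fix the oocyte level of a gene, however, and an oocyte stores RNA for the embryo. The shares of the classes in the early libraries are thus bound to differ, and support no statement on the classes. Of the 1548 genes higher in the oocyte, 93.9% were at 5 RPKM or more in the 1-cell library and 86.8% in the sphere library, and their median level went from 58.6 to 26.9 RPKM. Of the 4827 genes higher in sperm, 8.08% were at 5 RPKM or more in the 1-cell library, 17.1% in the 4-cell, 41.2% in the 16-cell, 33.5% in the 64-cell and 44.7% in the sphere library. Their median level was 0.278 RPKM at 1-cell and 3.55 RPKM at sphere. For all measured genes the shares were 44.7% at 1-cell and 67.4% at sphere. Their 16-cell share (68.3%) likewise lay above that of the 4-cell library (53.4%) and that of the 64-cell library (63.1%). All measured genes include those higher in sperm. Whether the 16-cell share is particular to the genes higher in sperm was not tested. Of the 120 genes high in both, 119 were at 5 RPKM or more in the 1-cell and in the sphere library.

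Single genes of the sperm side took different courses. DAW1 (0.0428 RPKM), FANK1 (0.01905 RPKM) and AK1 (0.0803 RPKM) were near 0 in the sphere library. FOXM1, at 2.92 RPKM in the 1-cell library, stood at 34.2 in the 16-cell and 18.2 in the sphere library. E2F8 stood at 0.558, 37.2 and 39.2 RPKM in the same libraries. The median over all measured genes was also higher in the 16-cell library (13.2 RPKM) than in the 4-cell (6.27 RPKM) and 64-cell (10.3 RPKM) libraries. Whether the 16-cell values of FOXM1 and E2F8 are particular to these genes was not tested. ID1 was at 0.0266 RPKM in the 1-cell, 10.9 in the 1000-cell and 288 in the sphere library. On the oocyte side, ctsla was at 1631 RPKM at 1-cell and 829 at sphere, and tmprss4b at 245 and 12.1 RPKM. Among genes high in both, RAN was at 418 and 379.5 RPKM, while fth1a was at 26.4 and 505 RPKM.

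**Figure D5:**
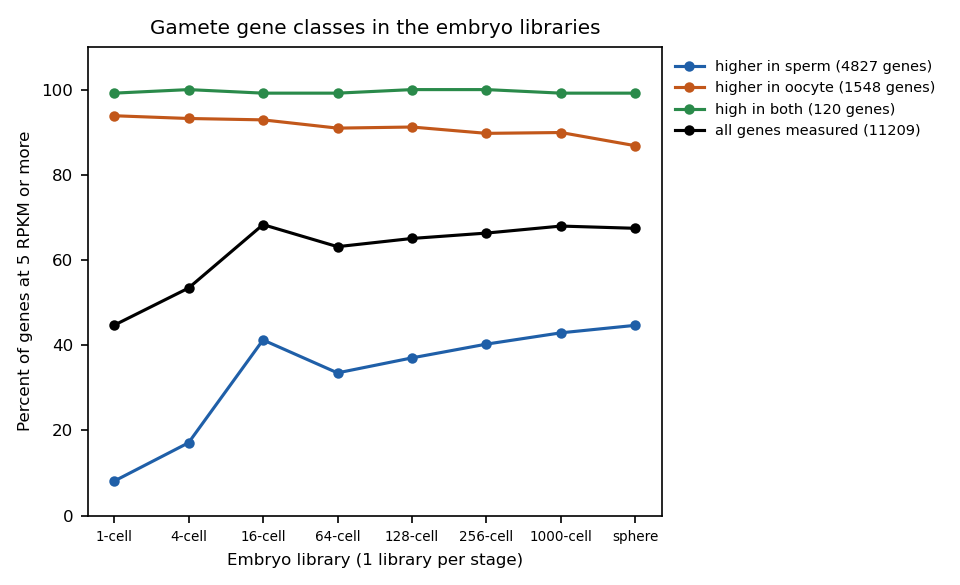
Percent of genes at 5 RPKM or more (y axis) in each of the 8 embryo libraries (x axis, 1 library per stage) for genes called higher in sperm, higher in the oocyte, high in both, and all measured genes. The oocyte line runs from 93.9% to 86.8% and the sperm line from 8.08% to 44.7%.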

How the data were processed

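Sperm and oocyte RNA of zebrafish was measured by RNA sequencing with 1 library per gamete. Per the labels' protocols, total RNA was isolated with TRIzol, libraries were made with the TruSeq RNA v2 kit, and single reads of 50 bp were run on a HiSeq2000. The submitters' processing notes name TopHat2 2.0.9 and the Zv9 build. The counting tool, annotation release, strand setting and treatment of reads with several matches are not stated in the sources used here. RPKM values were deposited by the authors in 1 table of 32574 genes and 10 libraries, and every column was used as labelled. The values are whole multiples of what 1 read is worth. Whole reads were recovered for 26493 of 26495 genes above 0 in at least 2 libraries, within 2e-05 of a read, and gave library totals of 39600592 and 54662927 for sperm and oocyte. No count model was run, since each group is 1 library.

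A gene was measured at 5 RPKM or more in either library. Changes are log2(RPKM + 1) of sperm minus that of the oocyte, a scale that understates the change of low genes. Calls were made at a size of 2 or more, and "high in both" meant 100 RPKM or more in both with a size under 1. Each fold has an exact 95% interval (Clopper-Pearson) from the recovered reads, with a floor of 3 reads for a gene without reads, and cover counting error only. Symbols came from a table of gene names that matched 20901 of the 32574 identifiers. Genes were named if their symbol was their own and they were among the 20 most abundant of a library, the 25 largest changes each way, the 6 largest changes each way or 3 highest levels of a list, or the 20 highest of those high in both. The text says where a gene was chosen otherwise, and some genes that met the rule are not reported here. Members and lists were chosen with earlier results of these data known, and some list entries were removed after names and values had been seen. Alternatives were pseudocounts, thresholds, scalings, genes with a symbol, and the 1-cell library in place of the oocyte. Computation used Python 3.11.15 with numpy 2.4.6, pandas 2.3.3, scipy 1.17.1 and matplotlib 3.10.9.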

Additional observations from a re-analysis of the deposited data

How the results depend on the processing

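No paired analysis was possible because each gamete is 1 library, and for the same reason no replicate could be left out. The median change of all genes, 1.51 as reported, was 1.71 with a pseudocount of 0.1 and 0.96 with one of 5. It was 1.22 at 1 RPKM, 1.29 at 10 RPKM and 0.48 with no filter on low values. It was 1.16 with median ratio scaling, 1.41 with equal totals, 1.47 over genes with a symbol and 2.004 with the 1-cell embryo replacing the oocyte. The count of genes higher in sperm was 2163 with a pseudocount of 5, and the other counts over all genes were within 1.5 times those reported. Counts within lists were less stable: of 78 lists, the count higher in sperm moved by more than 1.5 times in 60 and that in the oocyte in 18 with a pseudocount of 5, in 23 and 4 at 10 RPKM, in 6 and 13 with median ratio scaling, and in 11 and 7 with the 1-cell library. Of 521 called genes named by rule, 0 reversed. Pseudocounts, thresholds and scalings of this size could not reverse a called gene, so only the 1-cell library could have done so. The number still past 4-fold was 346 with a pseudocount of 5, 499 with median ratio scaling and 515 with equal totals. With the 1-cell library it was 495 of 512 measured. List medians changed sign as follows, and the cause was not tested. With a pseudocount of 0.1, Kruppel-like factors came to 0.013. At 1 RPKM, glycogen came to 0.50, ABC transporters to 0.46, ion pumps to 0.38, P-type ATPases to 0.081, Kruppel-like factors to 0.83, ETS factors to 0.49, and NF-Y and NFI factors to 1.20. At 10 RPKM, Wnt came to -0.43, TGF-beta to -1.38, receptor tyrosine kinases to -0.40, lipid synthesis to -0.34, gap junctions to -0.40, general transcription factors to -0.016 and ETS factors to 1.096. With no filter, glycogen came to 0.31, ABC transporters to 0.27, ion pumps to 0.21, P-type ATPases to 0.081, Kruppel-like factors to 0.24, ETS factors to 0.52, NF-Y and NFI factors to 0.73 and kinesins to 0.19. Lipid synthesis came to -0.088 and AP-2 factors to -0.31 with median ratio scaling, and AP-2 factors to -0.041 with equal totals. With the 1-cell library, glycogen came to 1.15, Kruppel-like factors to 1.46, ETS factors to 1.22, AP-2 factors to -0.26 and skin markers to 4.36. At this depth a gene of 1 kb without reads could lie at up to 0.0758 RPKM in sperm and 0.0549 RPKM in the oocyte.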

Other observations

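Zebrafish often has a pair of copies of a gene that mammals hold once. Copies were paired by a shared symbol or by the suffixes a and b, which gave 594 pairs with both members at 5 RPKM or more in either library. Both copies were past the 4-fold rule toward sperm in 100 pairs (16.8%) and toward the oocyte in 21 (3.54%), and the copies went opposite ways in 42 (7.07%). Of all measured genes 43.1% were higher in sperm and 13.8% in the oocyte, so pairs with opposite calls are no result about copies. The examples here are of opposite pairs alone, were chosen after their values were seen, and are in RPKM of sperm against oocyte. Near-identical copies may share reads. For MCM6, a subunit of the replicative helicase, ENSDARG00000057683 stood at 116 against 0.688 RPKM and ENSDARG00000033231 at 2.56 against 226 RPKM. For the RNA helicase gene ddx19a, ENSDARG00000044325 stood at 300.3 against 1.72 RPKM and ENSDARG00000005699 at 7.98 against 214 RPKM. For the centrosomal gene SSX2IP, ENSDARG00000061602 stood at 53.1 against 0.0491 RPKM and ENSDARG00000039521 at 14.7 against 176 RPKM. For the syntaxin gene STX11, ENSDARG00000029290 stood at 29.9 against 0.176 RPKM and ENSDARG00000044039 at 7.21 against 102 RPKM. The tight junction pair cldn7 (ENSDARG00000036376 and ENSDARG00000014047) stood at 20.2 against 0.0363 RPKM and 18.1 against 326 RPKM. For CYP11A1, which starts steroid synthesis, ENSDARG00000092696 stood at 15.3 RPKM in sperm with no read in the oocyte, and ENSDARG00000002347 at 2.81 against 206 RPKM.

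The classes also differed in gene length, as recovered from the RPKM steps. The median length was 1830.0 bases over 4762 genes called higher in sperm, 2148 bases over 1548 genes called higher in the oocyte, 1108 bases over the 120 genes high in both, and 2016 bases over all 11144 measured genes with a length. Lengths and levels were not tested against each other.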
